A study of Mus musculus with 9 samples.

Results

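The genes described here are 5 genes of zinc and metal handling: the metallothioneins Mt1 and Mt2, the zinc transporters Slc30a1 and Slc39a10, and the transcription factor gene Mtf1. They were taken by symbol from a table of raw read counts with 20189 genes, and all 5 were found and passed the filter for testing. The table holds 9 mRNA libraries of E14 mouse embryonic stem (ES) cells, an established wild-type line: 3 libraries of cells starved of cysteine (Cys), 3 of cells starved of threonine (Thr) and 3 of unstarved cells, with 3 h of starvation. The titles name the amino acid (AA) left out in each starved group and call the other cells unstarved. The paper describes medium with all AAs as the control of other assays. Its RNA-seq methods do not say whether these unstarved cells were moved to such a medium. If they were not, a change of medium or serum cannot be told apart from starvation in the comparisons with unstarved cells. The written treatment describes medium lacking Arg or Leu, and which base medium the Cys and Thr libraries had is not given in the sources used here; the starvation media that are described hold dialyzed serum, leukemia inhibitory factor and β-mercaptoethanol, a thiol reductant. All 3 groups come from 1 line, and the labels do not say whether the 3 libraries of a group came from separate cultures, so that the p-values measure the spread between these libraries, which may be technical.

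Metallothioneins are small proteins made up to an unusual extent of Cys, whose thiol groups hold zinc and copper ions. MTF1 is the zinc-sensing transcription factor that binds metal response elements (MREs) in the promoters of Mt1, Mt2 and Slc30a1 and raises their transcription when free zinc rises, and it is also known to repress Slc39a10. The Slc30a1 product ZnT1 carries zinc out across the plasma membrane, and the Slc39a10 product ZIP10 carries zinc in. Zinc itself and the proteins were not analysed here, and every value below is an mRNA level.

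The upstream sequences of the 3 members with MRE cores in their RefSeq windows are shown because these genes are known as MTF1 targets through such elements. In GRCm38, Mt2 lies at chr8:94172664-94173568 and Mt1 follows at chr8:94179082-94180327 on the same forward strand, 5513 nt further on, while Slc30a1 lies at chr1:191906767-191913247, also on the forward strand. The stretches below are RefSeq window sequences cut before whichever annotated start comes first, the GENCODE start for Mt1 and Slc30a1 and the RefSeq start for Mt2. They are at chr8:94178839-94179081 for Mt1, chr8:94172368-94172617 for Mt2 and chr1:191906531-191906766 for Slc30a1. Capitals mark each MRE core, TGCACNC or TGCGCNC on either strand.
Mt1: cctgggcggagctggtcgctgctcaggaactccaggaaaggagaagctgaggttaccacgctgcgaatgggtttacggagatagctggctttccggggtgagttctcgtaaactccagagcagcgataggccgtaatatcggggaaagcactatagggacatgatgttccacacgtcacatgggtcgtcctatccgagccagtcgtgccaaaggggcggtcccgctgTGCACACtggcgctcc
Mt2: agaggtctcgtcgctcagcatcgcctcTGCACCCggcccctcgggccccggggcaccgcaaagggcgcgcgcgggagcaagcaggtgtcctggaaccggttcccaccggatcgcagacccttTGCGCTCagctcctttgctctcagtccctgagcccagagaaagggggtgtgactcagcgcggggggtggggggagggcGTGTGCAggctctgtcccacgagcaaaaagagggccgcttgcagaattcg
Slc30a1: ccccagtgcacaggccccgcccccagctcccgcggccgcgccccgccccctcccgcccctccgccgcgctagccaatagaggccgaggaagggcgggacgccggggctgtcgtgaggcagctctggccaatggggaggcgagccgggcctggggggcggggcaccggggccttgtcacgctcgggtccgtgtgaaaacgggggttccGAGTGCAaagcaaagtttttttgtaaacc

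Counted over the RefSeq window of 250 bases before and 50 bases from the start on, with the start as base 1, Mt2 held 4 cores, Mt1 held 3 and Slc30a1 held 2. Of the 32851 windows of that length, 25.7% held at least 1 core, 7.11% at least 2, 1.97% at least 3 and 0.517% at least 4. In Mt1, the cores began at bases -23, 3 and 21, all on the gene's strand, and only the first of them is in the stretch printed above. Other Mt1 transcripts in GENCODE start 129 and 159 bases further downstream than the first, so that the distance from a core to a start depends on the transcript. Both of these starts lie past the end of the Mt1 window at chr8:94179138, and the bases beyond that end were not searched. In Mt2, the cores at -223 and -128 were on the gene's strand and those at -50 and 5 on the other, and in Slc30a1 both cores, at -43 and 31, were on the other strand. No core was in the window of Mtf1 or in either window of Slc39a10. The first window of Slc39a10 (chr1:46925727-46926026) lies upstream of the GENCODE gene and the second (chr1:46853569-46853868) inside it. Neither covers the GENCODE start of Slc39a10, and the Mtf1 window begins downstream of the GENCODE start of Mtf1. The bases around those 2 GENCODE starts were thus not searched. A match is a description of letters, and none of these windows was tested for binding.

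**Figure D1:**
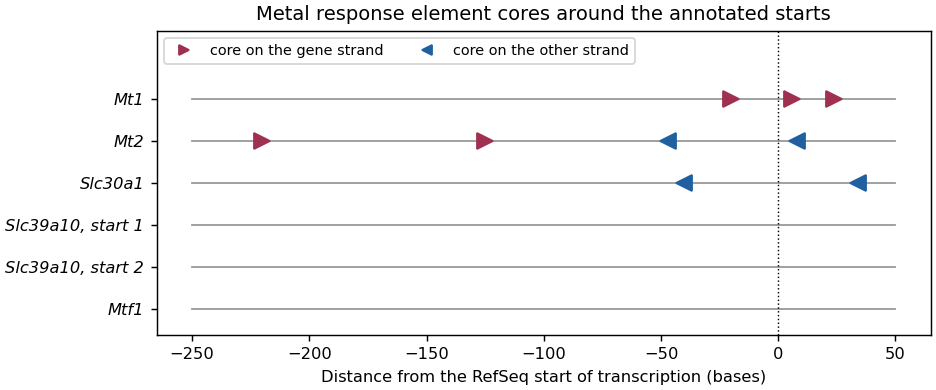
Map of the MRE cores in the windows of the 5 members, with the distance from the RefSeq start in bases on the horizontal axis and 1 line per window. Red triangles are cores on the gene's strand and blue triangles cores on the other strand; Mt1 has 3, Mt2 has 4, Slc30a1 has 2, and Mtf1 and both Slc39a10 windows have none.

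Both metallothionein mRNAs rose under either starvation. Levels are given as CPM, the count scaled to the library's total after TMM normalization, and changes as log2 fold changes with their standard error (SE) from edgeR's quasi-likelihood test with Benjamini-Hochberg adjustment over all 20143 genes tested; a gene was called at an adjusted p of 0.05 or less. Mt1 was at 72.1, 77.0 and 70.5 CPM in the unstarved libraries, at 111.9, 112.6 and 110.3 CPM in the Cys-starved libraries and at 123.5, 123.3 and 138.0 CPM in the Thr-starved libraries. The 3 groups did not overlap, every Thr-starved library was above every Cys-starved one, and Thr-starved replicate 3 was the highest of the 9. Mt1 was 1.75-fold higher in Thr-starved than in unstarved cells (log2 fold change 0.81 ± 0.039 SE, edgeR adjusted p = 2.1e-14). In Cys-starved cells it was 1.52-fold higher (0.61 ± 0.039 SE, edgeR adjusted p = 4.1e-11). Set against each other, the Thr-starved libraries held 1.15-fold more Mt1 mRNA than the Cys-starved ones (0.20 ± 0.038 SE, edgeR adjusted p = 6.7e-05).

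Mt2 was at 41.8, 42.6 and 42.7 CPM in the unstarved libraries, at 58.1, 63.7 and 62.9 CPM in the Cys-starved libraries and at 66.8, 61.6 and 66.5 CPM in the Thr-starved libraries. All 6 starved libraries were above all 3 unstarved ones, but the starved groups overlapped, since Thr-starved replicate 2 lay below Cys-starved replicates 2 and 3. Mt2 was 1.53-fold higher in Thr-starved cells (log2 fold change 0.62 ± 0.039 SE, edgeR adjusted p = 3.6e-12). In Cys-starved cells it was 1.45-fold higher (0.54 ± 0.039 SE, edgeR adjusted p = 3.4e-10). Between the starvations Mt2 did not pass the test, with a log2 difference of 0.08 (95% interval 0.0 to 0.16, edgeR adjusted p = 0.084). This call depended on the scaling and on single libraries: with the deposited size factors the difference was 0.12 (edgeR adjusted p = 0.0086), with offsets for GC content and length 0.16 (3.9e-04), without Thr-starved replicate 2 0.11 (0.018) and without Cys-starved replicate 2 0.10 (0.044).

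**Figure D2:**
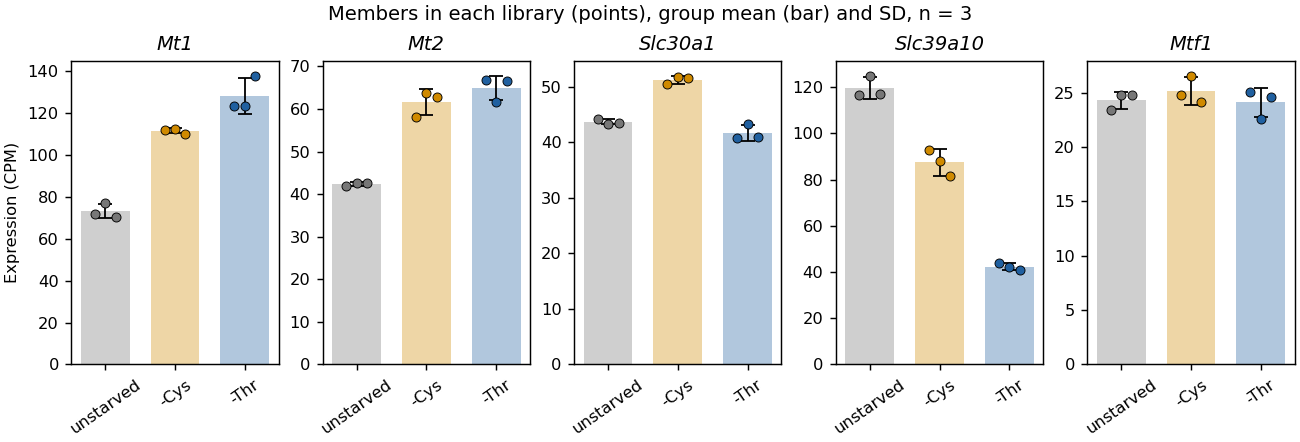
Expression of the 5 members in CPM, with 1 panel per gene; points are libraries, bars the group mean and error bars the SD of 3 libraries. Mt1 and Mt2 are above all unstarved libraries in all 6 starved libraries, Slc30a1 is highest in Cys-starved cells, Slc39a10 falls from 119.6 to 87.5 and 42.3 CPM, and Mtf1 lies between 22.6 and 26.6 CPM throughout.

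Added up, the pair of metallothioneins came to 115.6 ± 3.52 CPM (SD, n = 3) in unstarved, 173.2 ± 3.18 in Cys-starved and 193.2 ± 10.1 in Thr-starved cells. Whether both mRNAs changed by the same factor was tested on the ratio of their counts within each library, which does not depend on scaling. The log2 ratio of Mt1 to Mt2 was 0.78, 0.85 and 0.73 in unstarved libraries, 0.94, 0.82 and 0.81 in Cys-starved libraries and 0.89, 1.0 and 1.05 in Thr-starved libraries. Every Thr-starved library was above every unstarved one, whereas the Cys-starved libraries overlapped both. The exact two-sided permutation test gave p = 0.1 for Thr-starved against unstarved cells (difference 0.193, adjusted p = 0.3 over 3 comparisons), which is the smallest p that this exact test can give with 3 against 3 libraries, so that it could not reach 0.05. The same exact test gave p = 0.4 for Cys-starved against unstarved cells (difference 0.071) and p = 0.2 between the starvations (difference 0.122).

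**Figure D3:**
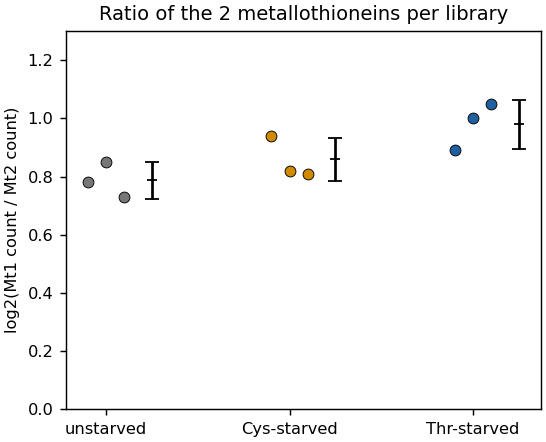
The log2 ratio of Mt1 to Mt2 counts in each of the 9 libraries (points), with the mean and SD of each group beside them. The Thr-starved libraries lie between 0.89 and 1.05 and the unstarved libraries between 0.73 and 0.85.

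Slc39a10, the zinc importer, fell under either starvation, and further under Thr starvation. The gene lies on the reverse strand at chr1:46807544-46892852. It was at 116.6, 125.0 and 117.1 CPM in unstarved libraries, at 92.9, 88.1 and 81.5 CPM in Cys-starved libraries and at 44.0, 42.2 and 40.8 CPM in Thr-starved libraries. The 3 groups were fully separated, from the lowest unstarved library at 116.6 CPM to the highest Cys-starved one at 92.9 and the highest Thr-starved one at 44.0. In Thr-starved cells the mRNA was 2.83-fold lower than in unstarved cells (log2 fold change -1.50 ± 0.042 SE, edgeR adjusted p = 1.8e-18). In Cys-starved cells it was 1.37-fold lower (-0.45 ± 0.040 SE, edgeR adjusted p = 6.5e-09). Between the starvations the difference was 2.07-fold (-1.05 ± 0.042 SE, edgeR adjusted p = 1.3e-15).

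Slc30a1, the zinc exporter, was the member whose call differed between the starvations. It was at 44.2, 43.4 and 43.4 CPM in unstarved libraries, at 50.4, 51.8 and 51.6 CPM in Cys-starved libraries and at 40.7, 43.2 and 40.9 CPM in Thr-starved libraries. Every Cys-starved library stood above the other 6, and the Thr-starved libraries lay just below the unstarved ones, the nearest pair being 43.2 and 43.4 CPM. Slc30a1 was 1.17-fold higher in Cys-starved than in unstarved cells (log2 fold change 0.23 ± 0.035 SE, edgeR adjusted p = 1.3e-05). In Thr-starved cells it did not pass the test (-0.07, 95% interval -0.14 to 0.0, edgeR adjusted p = 0.09), although with offsets for GC content and length it did (-0.10, 0.014), as it did without Thr-starved replicate 2 (-0.10, 0.031). The difference between the starvations was itself past the threshold, with Slc30a1 1.23-fold lower in Thr-starved cells (-0.30 ± 0.035 SE, edgeR adjusted p = 9.1e-08).

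Mtf1, at chr4:124802104-124849800 on the forward strand, was not called in any comparison. It was at 23.4, 24.8 and 24.8 CPM in unstarved libraries, at 24.8, 26.6 and 24.2 CPM in Cys-starved libraries and at 25.1, 22.6 and 24.6 CPM in Thr-starved libraries. The groups overlapped in all 3 comparisons. The log2 fold change was -0.01 in Thr-starved cells (95% interval -0.11 to 0.09, edgeR adjusted p = 0.88). It was 0.05 in Cys-starved cells (-0.05 to 0.15, edgeR adjusted p = 0.47) and -0.06 between the starvations (-0.16 to 0.04, edgeR adjusted p = 0.31). With 1079 to 1806 counts per library, Mtf1 had fewer counts than any other member in the same library.

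**Figure D4:**
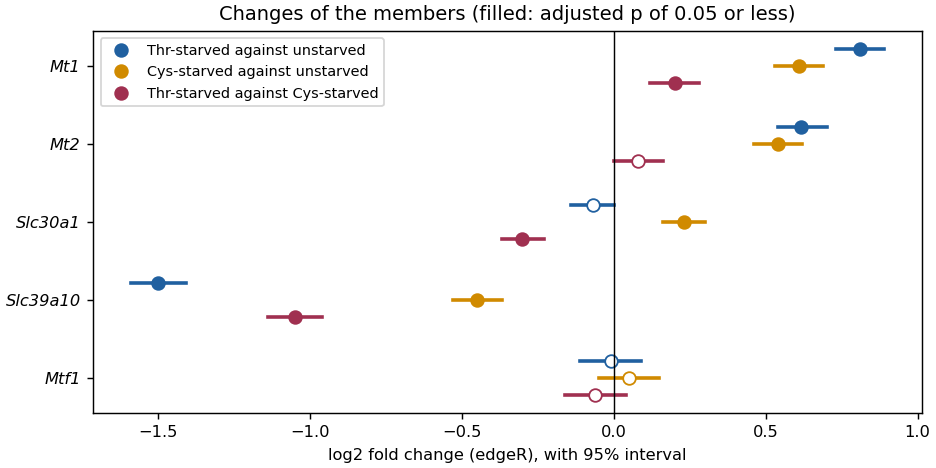
The log2 fold change of each member in the 3 comparisons with its 95% interval from edgeR; filled points passed an adjusted p of 0.05. Mt1 and Mt2 lie right of 0 and Slc39a10 left of 0 in both starvations, Slc30a1 lies right of 0 in Cys-starved cells only among the comparisons with unstarved cells, and all 3 intervals of Mtf1 cross 0.

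Read together, 3 of the 5 members were called in Thr-starved against unstarved cells, 2 higher and 1 lower, where 63.0% of all genes tested were called, 31.1% higher and 31.9% lower. In Cys-starved against unstarved cells, 4 of 5 were called, 3 higher and 1 lower, against 36.3% of all genes, 17.5% higher and 18.8% lower. Of the genes called in that comparison, 48.2% were higher, and with the deposited size factors 36.8% were. In Thr-starved against Cys-starved cells, 3 of 5 were called, 1 higher and 2 lower, against 62.0% of all genes, 30.4% higher and 31.6% lower. Libraries of the compared groups did not overlap for 4 members in Thr-starved against unstarved cells, 2 higher and 2 lower, where this held for 66.5% of all genes, 32.6% higher and 33.9% lower. They did not overlap for 4 members in Cys-starved against unstarved cells, 3 higher and 1 lower, against 46.4% of all genes, 23.0% higher and 23.5% lower. Between the starvations they did not overlap for 3 members, 1 higher and 2 lower, against 65.8% of all genes, 32.1% higher and 33.6% lower. All 5 members averaged at least 5 CPM, a level reached by 11410 of the 20143 genes behind these shares, so that unlike levels are compared. The shares set beside the gene lists further below are over the same 20143 genes of all levels. Calls were common in these data, and the members are therefore placed below by the size of their changes. With an absolute log2 fold change of 1 or more required as well, Slc39a10 in Thr-starved cells, against either other group, was the only call left among the members. The comparisons with unstarved cells share their 3 control libraries.

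Among 11410 genes that averaged 5 CPM or more over the libraries, 131 genes, or 1.15%, rose further than Mt1 in Cys-starved cells, and 218, or 1.91%, further than Mt2. In Thr-starved cells, 6.27% rose further than Mt1 and 11.0% further than Mt2. Both metallothioneins thus had the larger log2 change under Thr starvation but the higher rank under Cys starvation, in which fewer genes moved. For Mt2, however, the direct difference between the starvations did not pass the test in the fit reported (edgeR adjusted p = 0.084). Slc39a10 stood near the lower end in both, with 1.32% of genes falling further in Thr-starved and 1.81% in Cys-starved cells. The rise of Slc30a1 in Cys-starved cells was exceeded by 12.6% of genes.

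Levels of different members can be compared per length only. Per kb of the principal transcript, unstarved cells held 133.3 ± 6.13 CPM (SD, n = 3) of Mt1, 82.9 ± 0.912 of Mt2, 21.8 ± 0.853 of Slc39a10, 8.32 of Slc30a1 and 3.19 of Mtf1. Each of these levels was apart from the next by more than the spread over the libraries. The order of Mt1 and Mt2 depends on the transcript taken: Mt1 also has longer annotated forms, and per kb of all annotated exons Mt1 was at 58.7 and Mt2 at 72.1 CPM in the same cells. In Thr-starved cells Slc39a10 had come down to 7.70 ± 0.289 CPM per kb, next to Slc30a1 at 7.94, while Mt1 was at 233.6 ± 15.3 and Mt2 at 127.1 ± 5.71 CPM per kb. In Cys-starved cells the order was that of unstarved cells, with Mt1 at 203.3 ± 2.1, Mt2 at 120.5 ± 5.95, Slc39a10 at 15.9 ± 1.04, Slc30a1 at 9.77 and Mtf1 at 3.30 CPM per kb.

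Of the other metallothioneins, Mt3 fell in Thr-starved cells and Mt4 was barely detected. Mt3, the form known from neurons and also known to bind zinc, was at 1.74, 1.69 and 1.76 CPM in unstarved libraries, 1.64, 1.56 and 1.79 CPM in Cys-starved libraries and 0.755, 0.860 and 0.859 CPM in Thr-starved libraries. It was low in every library, its Cys-starved libraries overlapped the unstarved ones, and its Thr-starved libraries were below all others. Mt3 fell by 1.06 on the log2 scale in Thr-starved cells (SE 0.17, edgeR adjusted p = 7.5e-06), and in Cys-starved cells its log2 fold change of -0.06 did not pass the test (edgeR adjusted p = 0.81). Between the starvations it differed by -1.004 (edgeR adjusted p = 1.6e-05). Mt4, the form of stratified epithelia, had a mean of 0.153 CPM and was not called. Of the 4 metallothioneins, 2 were thus higher and 1 lower in Thr-starved cells, with a median log2 change of 0.26, and 2 were higher and 0 lower in Cys-starved cells, with a median of 0.24, where the medians over all genes were -0.02 and 0.01. Of all genes, 63.0% and 36.3% were called in these comparisons.

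The zinc transporters were then read as families. Of 12 ZIP proteins tested, which bring zinc into the cytosol, 7 mRNAs were lower and 1 higher in Thr-starved cells, where 31.9% of all genes were lower and 31.1% higher, and the median log2 fold change was -0.22 against -0.02 over all genes. In Cys-starved cells 6 were lower and 0 higher, where 18.8% of all genes were lower and 17.5% higher, with a median of -0.16 against 0.01 over all genes. Besides Slc39a10, the largest falls under Thr starvation were those of Slc39a4, the importer known from the gut, and of Slc39a8, which also carries manganese. Slc39a4 fell from 12.9 ± 0.885 to 5.57 ± 0.574 CPM (SD, n = 3; log2 fold change -1.20, edgeR adjusted p = 5.8e-12) and was at 11.8 ± 0.358 CPM in Cys-starved cells, where its -0.13 did not pass the test (edgeR adjusted p = 0.17); between the starvations it differed by -1.07 (5.4e-11). Slc39a8 fell in both, from 8.01 ± 0.370 to 3.56 ± 0.586 CPM with Thr starvation (-1.19, edgeR adjusted p = 2.2e-09) and to 5.68 ± 0.675 CPM with Cys starvation (-0.50, edgeR adjusted p = 4.5e-04). Slc39a9 was the remaining ZIP gene among the largest changes under Cys starvation (-0.37, edgeR adjusted p = 5.2e-07). Slc39a3 was at 3.37 CPM in Thr-starved against 6.13 CPM in Cys-starved cells (-0.84, edgeR adjusted p = 7.7e-07). Slc39a14 was 1 of the 4 ZIP genes not called with Thr starvation. It was at 146.2 CPM in unstarved and 146.4 CPM in Thr-starved cells (0.002, edgeR adjusted p = 0.96). In Cys-starved cells Slc39a14 fell to 120.3 CPM (-0.28, edgeR adjusted p = 7.9e-08).

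Most ZnT proteins, though not all, move zinc out of the cytosol into organelles or out of the cell. Of 9 ZnT genes tested, 3 mRNAs were higher and 1 lower in Thr-starved cells. In Cys-starved cells 3 were higher and 3 lower, and the median log2 change was -0.01 with either starvation. The 4 called with Thr starvation are 44.4% of the list against 63.0% of all genes, and the 6 called with Cys starvation are 66.7% against 36.3%. In Thr-starved cells the 3 higher were Slc30a2 (0.57, edgeR adjusted p = 2.9e-11), Slc30a9 (0.41, 3.0e-09) and Slc30a7 (0.38, 6.2e-07). They encode a vesicular transporter, 1 that acts in mitochondria and 1 of the Golgi, in that order. The 1 lower was Slc30a5 (-0.35, edgeR adjusted p = 2.9e-08). In Cys-starved cells the 3 higher were Slc30a1, Slc30a4 (0.40, edgeR adjusted p = 1.3e-04), a vesicular transporter, and Slc30a6 (0.37, 2.2e-05), a Golgi transporter. Directly compared, Slc30a2, Slc30a7 and Slc30a9 were higher in Thr-starved than in Cys-starved cells (0.70, 0.62 and 0.41, edgeR adjusted p of 1.0e-12, 3.5e-10 and 3.2e-09), while Slc30a1, Slc30a4 and Slc30a6 were lower (-0.30, -0.30 and -0.38, with 9.1e-08, 0.0012 and 4.8e-06). The 3 lower in Cys-starved cells were Slc30a7 (-0.24, edgeR adjusted p = 9.1e-04), Slc30a5 (-0.175, 6.5e-04) and Slc30a2 (-0.13, 0.02). Compared between the starvations, 7 of 9 ZnT genes were called, 3 higher and 4 lower in Thr-starved cells. Of 12 ZIP genes, 10 were called there, 4 higher and 6 lower. The share of all genes called was 62.0%, with 30.4% higher and 31.6% lower. Slc30a10 and Slc39a2, at means of 0.279 and 0.115 CPM, were too low to be read, and Slc30a8, Slc39a5 and Slc39a12 were not analysed here.

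**Figure D5:**
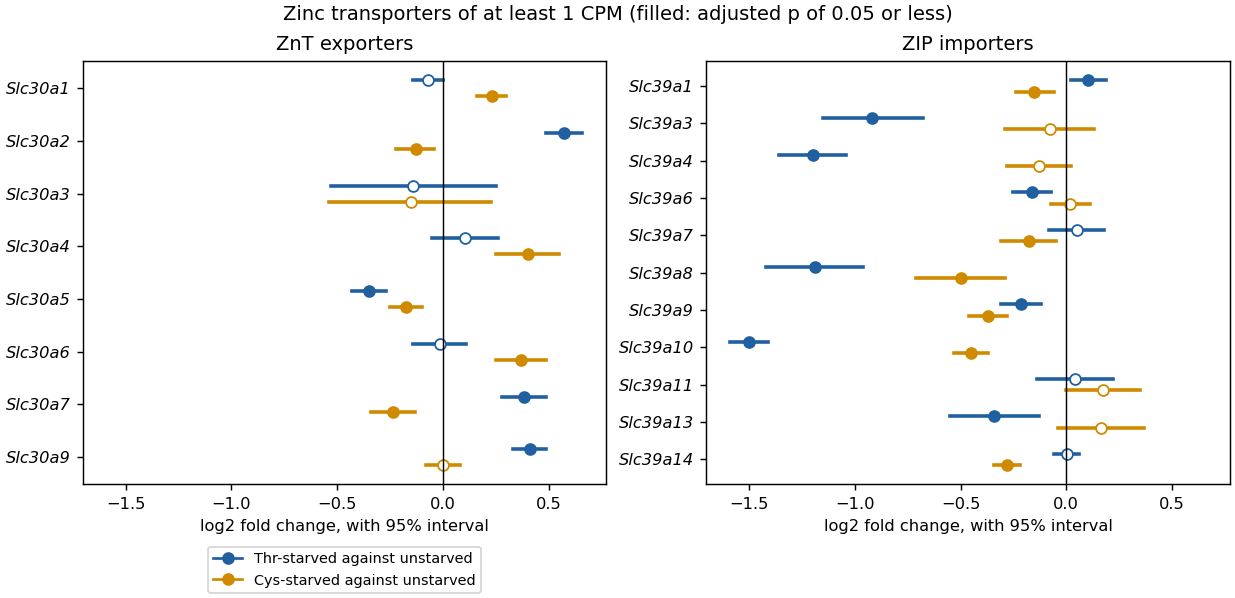
The log2 fold changes of the ZnT and ZIP genes of at least 1 CPM in Thr-starved (blue) and Cys-starved (orange) against unstarved cells, with 95% intervals; filled points passed an adjusted p of 0.05. Slc39a10, Slc39a4 and Slc39a8 lie farthest left in Thr-starved cells, and Slc30a1, Slc30a4 and Slc30a6 are filled in Cys-starved cells only.

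A list of 8 genes known to depend on MTF1 in the mouse joins genes that it raises with Slc39a10, which it represses, so that no common direction is built into the list. Of the 8, which include Mt1, Mt2 and Slc30a1, 4 were higher and 3 lower in Thr-starved cells (median log2 fold change 0.15), and 3 were higher and 4 lower in Cys-starved cells (median -0.07), where the medians over all genes were -0.02 and 0.01. The calls are 87.5% of the list in both, against 63.0% and 36.3% of all genes. All 8 averaged at least 5 CPM, a level reached by 11410 of the 20143 genes behind those shares, so that unlike levels are compared. Selenow, a small selenoprotein, had opposite changes: it was at 36.6, 37.0 and 37.7 CPM in unstarved libraries, 24.0, 24.8 and 24.1 CPM in Cys-starved libraries and 53.7, 53.3 and 57.3 CPM in Thr-starved libraries. Its log2 fold changes were 0.56 in Thr-starved cells (edgeR adjusted p = 8.6e-12) and -0.61 in Cys-starved cells (6.4e-11), and 1.17 between the starvations (5.1e-17). Csrp1 had opposite changes too, with 0.36 in Thr-starved cells (edgeR adjusted p = 2.5e-07) and -0.29 in Cys-starved cells (3.0e-05). Gclc, the catalytic subunit of the enzyme that joins glutamate and Cys in glutathione synthesis, fell in both, from 70.5 ± 0.810 CPM (SD, n = 3) to 43.7 ± 0.612 with Thr starvation (-0.69, edgeR adjusted p = 1.1e-14) and to 51.7 ± 1.09 with Cys starvation (-0.45, 1.8e-10). Ndrg1, a gene also known from hypoxia, fell by 0.54 on the log2 scale in Thr-starved cells (edgeR adjusted p = 1.5e-06) and did not pass the test in Cys-starved cells (0.15, edgeR adjusted p = 0.099). Between the starvations it was lower with Thr left out (-0.69, edgeR adjusted p = 2.9e-08).

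Copper, the other metal that metallothioneins hold, is handled by a set of 8 genes measured here, of which 3 were higher and 2 lower in Thr-starved cells and 1 higher and 3 lower in Cys-starved cells, with medians of 0.08 and -0.09. These are 62.5% of the set called with Thr starvation against 63.0% of all genes, and 4 of 8 called with Cys starvation against 36.3%. Atp7a, the copper-exporting ATPase, was at 12.99 ± 0.481 CPM (SD, n = 3) in unstarved, 16.4 ± 1.08 in Cys-starved and 22.2 ± 0.992 in Thr-starved cells. It rose in both starvations (log2 fold change 0.77 and 0.33 with Thr and Cys left out, edgeR adjusted p = 6.5e-11 and 9.5e-05). Atp7b, its relative of liver, fell by 0.88 on the log2 scale in Thr-starved cells (edgeR adjusted p = 3.1e-07) and was at -0.06 in Cys-starved cells (0.70). Slc31a1, the copper importer CTR1, rose in Thr-starved cells (0.36, edgeR adjusted p = 6.4e-08) and fell in Cys-starved cells (-0.35, 7.6e-07). Atox1, a copper chaperone, fell in Thr-starved cells (-0.36, edgeR adjusted p = 1.7e-08) and in Cys-starved cells (-0.18, 5.0e-04). Commd1, a gene of copper excretion, fell in Cys-starved cells (-0.22, edgeR adjusted p = 9.0e-04) and was not called in Thr-starved cells (0.02, 0.75). Between the starvations, Atp7a and Slc31a1 were higher (0.44 and 0.71, edgeR adjusted p = 4.5e-07 and 9.4e-13) and Atp7b lower (-0.82, 9.1e-07) in Thr-starved cells.

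The genes most like each member were found by Pearson's r of log2(CPM + 0.5) over the 9 libraries among the genes of at least 5 CPM, as a description in which the libraries of a group are not independent points. Closest to Mt1 were Gen1, Clpx and Wdr76, each with r = 0.994, and 239 genes reached an r of 0.95. Closest to Mt2 were Ppp1r15a (0.992), which encodes the stress-induced regulatory subunit of an eIF2α phosphatase, Apopt1 (0.990) and Hax1 (0.990), with 153 genes at 0.95 or above. Slc30a1 was followed most closely by Tnks1bp1 (0.992), Rinl (0.989) and Zfp72 (0.988), with 95 such genes. Slc39a10 had 1409 such genes, led by Cdc42se1 (0.999), Dhx37 (0.999) and Foxd3 (0.998). For Mtf1 the highest value was that of Prelid3b (0.908), and 0 genes reached 0.95.

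Some facts of the libraries touch these values. Library totals ran from 48763102 to 74962733 counts, and no library was left out. Even counts made up 67.8% of the values from 1 to 20, and halving all counts changed no call of a member. All 10 ES cell markers were above 5 CPM in every group, with summed levels of 4590 to 4640 CPM in unstarved, 4320 to 4380 in Cys-starved and 4820 to 4910 in Thr-starved libraries. The summed levels of 4 neural markers were 166 to 172, 202 to 206 and 80.4 to 82.8 CPM in the same order, those of 6 fibroblast markers 15.7 to 16.1, 14.8 to 17.9 and 11.2 to 12.1 CPM, those of 4 endoderm markers 3.17 to 3.41, 4.3 to 5.07 and 4.63 to 5.43 CPM, and those of 2 trophoblast markers 3.69 to 4.43, 3.05 to 3.63 and 1.37 to 1.70 CPM. Not every neural marker fell with its sum: Neurod1 averaged below 5 CPM in unstarved and Cys-starved cells and at least 5 CPM in Thr-starved cells. Of these lists, 1 fibroblast, 1 endoderm and 1 trophoblast marker were not analysed here. No other marker was at 0 in all libraries of a group, and the part of such differences in the members' changes was not tested. In bulk libraries, fewer cells with a transcript and less of it per cell cannot be told apart. Antisense genes overlap exons of Mt2, Mtf1 and Slc30a1, and how the counting used strand is not given in the sources used here. Gm45774, opposite Mt2, was at 0.711 to 0.943 CPM in unstarved, 1.14 to 1.3 in Cys-starved and 1.24 to 1.87 in Thr-starved libraries, against at least 41.8 CPM of Mt2. Opposite Mtf1, 1110065P20Rik was at 2.5 to 3.46, 3.12 to 3.72 and 4.63 to 5.16 CPM, and opposite Slc30a1, 1700034H15Rik was at 0.382 to 0.843 CPM over all libraries.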

How the data were processed

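Poly(A) mRNA libraries were made with a directional kit and sequenced from both ends. Per the labels and the study's methods, the authors mapped reads to GRCm38 with STAR 2.7.4a and counted them per gene with HTSeq, and the deposited counts were not normalized. The deposited signal values of a further table are the same counts divided by a size factor per library from DESeq2, and they gave only the size factors of an alternative. Both tables hold 9 libraries in 3 groups of 3, and groups were read from the sample titles. Genes with at least 1 count over all libraries (20143 of 20189) were fitted in R 4.3.3 with edgeR 4.0.16, using TMM scaling, glmQLFit and glmQLFTest on group alone, and p-values were adjusted per comparison by the Benjamini-Hochberg method at 0.05. CPM are relative to each library's scaled total, so that they hold no measure of RNA per cell. The common coefficient of variation between replicates was 3.53%. On simulated counts for 20142 genes, the edgeR step for Thr-starved against unstarved cells recovered 200 of 200 changed genes with 15 false calls. The simulation gave every gene the same spread and used changes larger than any difference of Slc30a1 or Mtf1. It therefore does not bear on calls of that size. Between replicates, the chi-square for a gene averaged 1.98 to 2.12 where counts lay from 10 to 100, which counting both reads of a fragment could give by itself, and 2.61 to 5.21 from 1000 to 10000.

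The members and gene lists were chosen with earlier results of these data known, and lists were described by counts and medians without a list test. Named list genes were the 3 called genes of largest absolute log2 fold change per list and comparison. They had a mean of at least 1 CPM, and genes lower than that could be named as low. Slc30a5 was named outside this rule, as the ZnT gene called lower in both starvations. Also outside it were Slc39a14, as a ZIP gene not called with Thr starvation, and Csrp1, for its opposite changes. The 3 most similar genes were named per member, except that only the first is reported here for Mtf1. Symbols came from GENCODE M21 on GRCm38 for 20171 genes, and sequences and windows from RefSeq on GRCm38, which matched all 5 members. BLAST 2.17.0 found no other gene sharing at least 43 nt at 95% identity or more with Mt1 or Slc39a10, and only the antisense partner for each of the other members.

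Alternatives were DESeq2 1.42.0, RLE scaling, the deposited size factors, filterByExpr, at least 10 counts per library, thinned counts, fits without the third group, the replicate block, GC content and length offsets (loess, span 0.3) with and without the block, an adjusted p of 0.01, an absolute log2 fold change of 1 or more, a pseudocount of 0.5 for the ratio, and each fit without 1 library. Halved counts and the exon length of Mt1 and Mt2 were added after seeing the data.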

Additional observations from a re-analysis of the deposited data

How the results depend on the processing

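Mt1 and Slc39a10 kept their direction and call in all 3 comparisons under every alternative except the fold threshold below, as did Mt2 and Slc30a1 in Cys-starved against unstarved cells, and Mtf1 was called under none. Requiring an absolute log2 fold change of 1 or more left 2668 of all genes and 1 member called with Thr starvation, 296 genes and 0 members with Cys starvation, and 2303 genes and 1 member between the starvations, that member being Slc39a10. Slc30a1 in Thr-starved against unstarved cells passed the threshold with GC content and length offsets (-0.101, edgeR adjusted p = 0.014, and 0.020 with the replicate block), and ran from -0.097 to -0.051 over fits without 1 library, passing only without Thr-starved replicate 2 (edgeR adjusted p = 0.031). Mt2 between the starvations passed with RLE scaling (0.089, edgeR adjusted p = 0.05), the deposited size factors (0.122, 0.0086) and GC content and length offsets (0.155, 3.9e-04, and 8.4e-04 with the block), and ran from 0.037 to 0.113 over fits without 1 library. The fold change of Mtf1 in Thr-starved cells, never called, ran from -0.033 to 0.031 over those fits and was above 0 without Thr-starved replicate 2 (0.031), unstarved replicate 2 (0.011) or unstarved replicate 3 (0.003). The log2 level of Mt1 over Mt2 per length turned to -0.3 with the length of all annotated exons. The causes of these shifts were not tested. With the deposited size factors, the genes called in Cys-starved cells were 2787 higher and 4786 lower, against 3523 and 3790 in the fit reported.

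Replicate numbers did not pair the libraries: libraries of the same number deviated from their group means with correlations of -0.244 to 0.106. With the replicate block, 12488, 7063 and 12334 genes were called in the 3 comparisons, and no call of a member changed (Mt1 0.81, Slc39a10 -1.498 and Slc30a1 -0.07 in Thr-starved cells). The members had at least 1079 counts in each library, and the exact test of the ratio could not reach 0.05.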
